A study of Mus musculus with 18 samples.

Results

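The genes described here are 35 mouse genes of nuclear receptors, chosen by symbol from the 23420 genes of the count tables. They are members of the family outside the liver X receptors (LXR), the retinoid X receptors (RXR), the retinoic acid receptors, the Nr4a genes and Esrrb, and do not cover all of the rest of the family. The RNA came from embryonic stem (ES) cells of the wild type mouse line E14 and from neural cultures made of them, and was sequenced in 18 libraries, 2 in each of 9 groups. Undifferentiated ES cells, kept without feeder cells in serum with leukemia inhibitory factor, were a control group or received GW3965, LG268 or both for 24 h. Cultures at days 8, 16 and 17 came from a protocol in which cells formed floating aggregates without that factor, received 5 µM all-trans retinoic acid over 4 days, and were then plated on laminin and poly-L-ornithine in N2 medium. Whether day 8 fell before or after plating is not stated. They were taken without ligand at all of these days, and with GW3965 at days 16 and 17. GW3965 activates LXR and LG268 activates RXR, both ligands were used at 1 µM, and the vehicle was dimethylsulfoxide. How long the differentiated cultures had GW3965 is not in the labels, but the names of the deposited count tables give it from day 8 for day 16 and for 24 h for day 17. Age and length of treatment therefore cannot be told apart between these groups. The names of the both-ligand tables also carry the short form of control, and that group was taken from the labels. The labels also did not say whether replicates were separate cultures, so p values may measure technical spread alone.

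Nuclear receptors are transcription factors, most of which bind short DNA elements through zinc fingers and carry a pocket for a small ligand such as a steroid, a thyroid hormone or a fatty acid. One class, to which the thyroid hormone, vitamin D and peroxisome proliferator-activated receptors belong, binds DNA as a pair with RXR, the target of LG268. Steroid receptors pair with themselves after release from heat shock protein chaperones, and several receptors without a known natural ligand, called orphans, act alone or as repressors. In the developing nervous system the COUP-TF orphans are known for patterning, the thyroid hormone receptors for maturation, and the REV-ERB and ROR receptors for the circadian clock.

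Most members of the family bind elements built from the half-site AGGTCA. Promoter windows of 6 genes with large changes between ES cells and day 8 are shown so that the letters before their starts can be read beside the values, from RefSeq on GRCm38.p6, 5′ to 3′ on the strand of the gene. Each runs over at most 250 bases that end before the start of a transcript and hold no exon base of a coding gene. Capitals mark AGGTCA or CACGTG (the letters of the E-box, bound by CLOCK and its relatives) on either strand. Nr1h5, Nr2f2 and Rorb were low in ES cells and high at day 8, while Nr0b1, Nr6a1 and Pgr fell. Rorb and Nr6a1 have several starts, of which 1 is shown.
Nr1h5, chr3:102964134-102964383, minus strand: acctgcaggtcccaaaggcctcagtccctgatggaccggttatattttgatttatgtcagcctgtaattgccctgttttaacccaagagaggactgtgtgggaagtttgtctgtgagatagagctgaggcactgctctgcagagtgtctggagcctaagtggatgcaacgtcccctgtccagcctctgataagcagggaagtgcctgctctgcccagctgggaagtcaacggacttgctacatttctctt
Nr2f2, chr7:70366747-70366996, minus strand: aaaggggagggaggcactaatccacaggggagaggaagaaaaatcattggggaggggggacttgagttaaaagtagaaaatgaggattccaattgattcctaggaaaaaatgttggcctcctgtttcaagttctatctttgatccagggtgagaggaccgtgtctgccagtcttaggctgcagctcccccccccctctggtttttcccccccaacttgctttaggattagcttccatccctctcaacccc
Rorb, chr19:19111197-19111446, minus strand: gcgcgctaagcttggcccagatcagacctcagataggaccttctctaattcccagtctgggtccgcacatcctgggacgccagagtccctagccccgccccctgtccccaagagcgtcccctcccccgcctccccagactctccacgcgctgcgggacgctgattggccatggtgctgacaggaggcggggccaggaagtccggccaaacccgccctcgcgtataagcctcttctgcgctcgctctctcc
Nr0b1, chrX:86191525-86191763, plus strand: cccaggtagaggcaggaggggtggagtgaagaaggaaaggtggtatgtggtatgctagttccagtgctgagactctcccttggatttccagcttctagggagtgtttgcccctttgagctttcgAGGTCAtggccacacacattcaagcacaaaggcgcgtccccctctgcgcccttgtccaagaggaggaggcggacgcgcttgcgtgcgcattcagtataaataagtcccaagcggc
Nr6a1, chr2:38784521-38784765, minus strand: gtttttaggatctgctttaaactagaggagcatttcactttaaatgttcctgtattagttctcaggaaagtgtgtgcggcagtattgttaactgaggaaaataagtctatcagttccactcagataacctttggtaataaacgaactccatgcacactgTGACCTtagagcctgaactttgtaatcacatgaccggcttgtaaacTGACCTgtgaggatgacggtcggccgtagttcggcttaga
Pgr, chr9:8899583-8899832, plus strand: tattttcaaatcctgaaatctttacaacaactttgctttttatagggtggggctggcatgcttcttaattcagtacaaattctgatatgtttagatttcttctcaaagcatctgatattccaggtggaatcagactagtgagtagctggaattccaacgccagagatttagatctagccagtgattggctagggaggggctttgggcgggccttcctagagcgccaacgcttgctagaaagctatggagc
AGGTCA stood in the printed windows of Nr0b1 and Nr6a1, and neither motif in the 4 others, which says nothing of binding. A window before another start of Nr6a1, nearer to the annotated start of the gene (chr2:38926462-38926711), held neither motif. RefSeq held 43 such windows of 250 bases for 31 of the 35 genes. AGGTCA stood in 8 of them (18.6%) against 14.0% of 32851 windows of all genes, and CACGTG in 4 (9.30%) against 6.02%. The letters TCAAGGTCA, a longer element of monomer-binding receptors, stood in 0 of the 43 windows and in 0.387% of all windows. Direct repeats were searched with a looser half-site (A or G, then G, then G or T, then TCA). Those spaced by 1, 2, 4 or 5 bases (DR1, DR2, DR4 and DR5) stood in 0 of 43, against 0.067 to 0.174% of all windows.

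Libraries held 16.75 to 44.79 M gene counts. Levels are given as counts per M gene counts (CPM) after TMM scaling (a correction for the composition of each library), and log2 fold changes with their SE from 1 edgeR fit. A gene changed where its p, adjusted over the 17166 genes tested, was under 0.05. All 18 libraries carried the label embryonic stem cells, while the summed level of 7 pluripotency markers fell from 2383 and 2403 CPM in ES control to 79.8 and 83.2 at day 8 and that of 7 neuron markers ran from 381 and 386 to 3151 and 3217. Day 17 files listed 31.84 to 33.53% of reads as aligned more than once, against 0 in the 14 other files, so the steps to day 17 also compare differently made files. The 2 libraries at day 16 with GW3965 and the 2 with both ligands differed more than other pairs (chi-square per gene 40.4 and 10.3, against 2.80 to 6.89). At day 16 with GW3965 the ribosomal gene Rn45s, at 1210 and 16487 CPM, made up 63.6% of that sum. In these bulk samples fewer cells of a type and less RNA per cell cannot be told apart.

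Of the 35 genes 31 passed the filter on low counts. The others were Nr0b2, Nr1h4, Nr2e3 and Nr5a1, at 0 to 0.44 CPM in every library, and they encode SHP, FXR, the photoreceptor-specific receptor PNR and SF-1. In some group 30 genes reached 1 CPM, 21 reached 5 CPM and 6 reached 100 CPM. The number at 1 CPM or more was 17 in ES control, 23 at day 8, 27 at day 16 and 27 at day 17, and the summed level of the 35 was 571, 844, 934 and 1063 CPM. Per kb of exon, the gene with the highest level was Nr6a1 in ES control, at 19 ± 0.627 reads per kb per M (SD, n = 2), ahead of Nr0b1 at 8.38 ± 0.33 and Thra at 7.81 ± 0.216. At day 8 Thra (29.6 ± 0.964) and Nr2f1 (27.5 ± 1.3) led and differed by less than the sum of their SDs, while at day 16 Thra led at 54.1, ahead of Nr1d1 at 19.1 and Nr3c1 at 14.6. Thra stayed first at day 17, at 36.7 against 23.5 for Nr3c1.

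**Figure D1:**
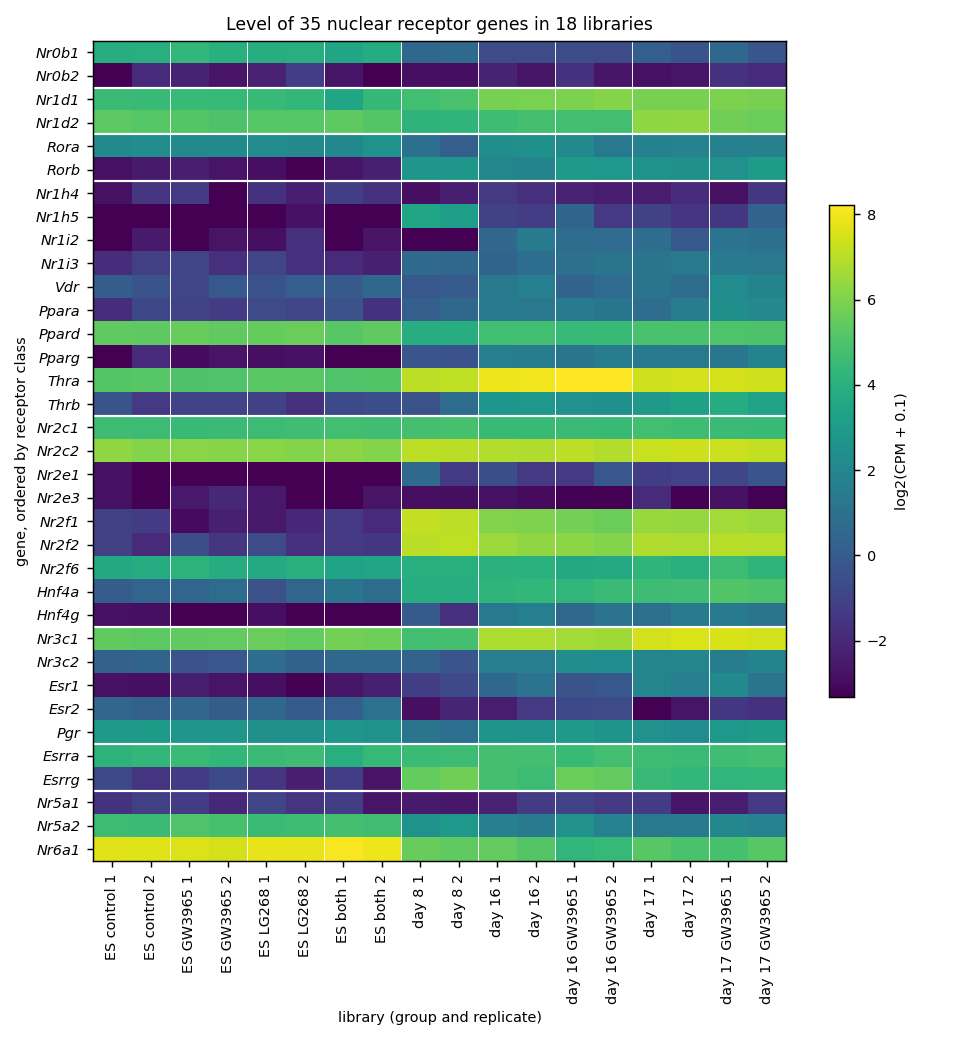
Level of each of the 35 genes (rows, grouped by receptor class, white lines between classes) in each of the 18 libraries (columns), as log2 of CPM plus 0.1. Nr6a1 is bright in the 8 ES libraries, Nr2f1 and Nr2f2 are dark there and bright in the 10 differentiated ones, and Thra is brightest at day 16.

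Between ES control and day 8, 18 of the 31 tested genes rose and 9 fell, which is 87.1% beside 78.7% of all tested genes, 39.7% higher and 39.1% lower. Median absolute log2 changes were 1.996 for the 31 and 0.89 for all genes. Genes near 0 in ES cells that passed the filter through their later level had to differ, so these shares describe the group only. By class, 7 of 8 tested orphans of subfamily 2 rose and 0 fell, with a median log2 change of 3.57. Of 9 partners of RXR 6 rose and 1 fell (median 1.88). Both estrogen-related receptor genes rose, but Esrrg far more than Esrra, so that their median of 3.72 describes neither. The call for Esrra was not stable, as given below.

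Nr2f1 (chromosome 13, 78188973 to 78199757) and Nr2f2 (chromosome 7, 70351944 to 70366735) encode COUP-TFI and COUP-TFII. Nr2f1 had 0.352 and 0.316 CPM in the ES control libraries and 145 and 135 at day 8 (log2 8.70 ± 0.15, adjusted p = 4.84e-20). Nr2f2 had 0.352 and 0.158 and then 131 and 140.3 CPM (log2 9.06 ± 0.18, adjusted p = 2.78e-19). Every day 8 library lay far above both ES libraries for both genes. In ES control the 2 libraries together held 16 counts of Nr2f1 and 12 of Nr2f2, so the size of either rise rests on few counts. Hnf4a, which encodes a receptor of liver and gut, rose from 0.967 and 1.26 to 14.4 and 14.4 CPM (log2 3.68 ± 0.20, adjusted p = 1.08e-12), beside a sum of 7 endoderm and hepatic markers that went from 12 and 13.3 to 363 and 367 CPM. The part of such cells in the rise of Hnf4a was not tested. Hnf4g, its relative, had 2 counts in ES control and 28 at day 8, a ratio of 11.9 (95% counting interval 3.005 to 103.2), and the call ended without day 8 replicate 1 (adjusted p = 0.0893). Nr2e1, which encodes TLX of neural stem cells, had 1 count in ES control and 47 at day 8, a ratio of 40.0 (6.84 to 1613), with 1.47 and 0.294 CPM in the 2 day 8 libraries. Nr2c1 and Nr2c2, which encode the related repressors TR2 and TR4, rose by 0.25 and 0.86 on the log2 scale. The call for Nr2c1 ended without ES control replicate 2 or day 8 replicate 2 (adjusted p = 0.0519 to 0.0572). Exons of Mrps25 on the opposite strand cover 31.2% of those of Nr2c2, and whether the counting used strand is not known here. Mrps25 itself rose by 0.31 ± 0.066 on the log2 scale over this step (adjusted p = 0.000274).

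Among the RXR partners the largest rise was that of Nr1h5 (chromosome 3, 102939658 to 102964133), which encodes FXR beta, a sterol receptor. It had 0 counts in both ES control libraries and 11.1 and 8.75 CPM at day 8, at least 78.6-fold higher at a floor of 3 counts per library. Thra (chromosome 11, 98740638 to 98769006), the gene of thyroid hormone receptor alpha, had 35.3 and 36.7 CPM in ES control and 133 and 139.8 at day 8 (log2 1.92 ± 0.057, adjusted p = 6.53e-17). Its 2 day 8 libraries lay above both ES libraries. The beta receptor gene Thrb rose from 0.49 to 1.09 CPM, but the call ended without ES control replicate 2 or day 8 replicate 2 (adjusted p = 0.256 to 0.564) and with limma-voom (adjusted p = 0.0803). Pparg rose from 0 and 0.158 to 0.735 and 0.653 CPM and Ppara from 0.176 and 0.474 to 1.04 and 1.4. These are the fat-cell and liver members of the fatty acid receptors, and both stayed under 2 CPM. Nr1i3, which encodes the xenobiotic receptor CAR, rose to 1.44 CPM, with 74.9% of its exon bases inside Tomm40l on the opposite strand. Ppard, of the widespread delta form of these receptors, fell from 42 and 40.5 to 14.6 and 14.5 CPM (log2 -1.504 ± 0.088, adjusted p = 2.88e-12), with no overlap between the groups. Vdr and Nr1i2 did not pass the test (log2 0.03 ± 0.41 for Vdr), and Nr1i2 had 2 counts in ES control and 0 at day 8.

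Genes of early embryonic receptors fell. Nr0b1 (chromosome X, 86191764 to 86195947), whose product DAX1 lacks the usual DNA-binding domain and is known from ES cells, had 14.7 and 15.6 CPM in ES control and 1.32 and 1.5 at day 8 (log2 -3.42 ± 0.21, adjusted p = 4.93e-12). Nr6a1 (chromosome 2, 38723370 to 38927688), the gene of GCNF, which silences Pou5f1, had 210.5 and 201 and then 46.8 and 42.3 CPM (log2 -2.21 ± 0.11, adjusted p = 2.54e-13). Nr5a2, the gene of LRH-1, which activates Pou5f1, fell from 23.9 and 23.2 to 6 and 6.92 CPM (log2 -1.86 ± 0.16, adjusted p = 1.61e-09). In all of these genes both day 8 libraries lay below both ES libraries.

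Steroid receptor genes moved in both directions. Pgr, the progesterone receptor gene, fell from 7.25 and 7.78 to 2.05 and 1.73 CPM (log2 -1.996 ± 0.18, adjusted p = 3.37e-09), and Nr3c1, the glucocorticoid receptor gene, from 42.7 and 40.1 to 26.1 and 28.3 (log2 -0.60 ± 0.078, adjusted p = 6.51e-07). The estrogen receptor beta gene Esr2 fell from 1.19 to 0.0847 CPM, while Esr1, of the alpha receptor, went from 2 to 24 counts, a ratio of 10.2 (2.54 to 89.2). Nr3c2, of the mineralocorticoid receptor, did not pass (log2 -0.33 ± 0.31). Of the estrogen-related receptors, which regulate oxidative metabolism, Esrrg (chromosome 1, 187608791 to 188214885) went from 0.483 and 0.237 to 45.4 and 52.6 CPM (log2 7.09 ± 0.24, adjusted p = 3.95e-16). Esrra rose by 0.35 on the log2 scale, and this call ended without ES control replicate 1 or day 8 replicate 2 (adjusted p = 0.0864 to 0.162).

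Clock receptors split as well. Rorb, which encodes ROR beta of brain and retina, had 3 counts in ES control and 380 at day 8, a ratio of 108 (36.6 to 525). Rora fell from 4.31 and 4.94 to 1.74 and 1.01 CPM (log2 -1.77 ± 0.29, adjusted p = 1.23e-05). Nr1d2, of the repressor REV-ERB beta, fell from 39.5 and 35.7 to 18.1 and 18.8 CPM (log2 -1.03 ± 0.097, adjusted p = 5.9e-09). Its relative Nr1d1 rose by 0.32 ± 0.15 on the log2 scale (adjusted p = 0.0496). That call ended without ES control replicate 1, ES control replicate 2 or day 8 replicate 2 (adjusted p = 0.088 to 0.271), with a stricter filter (adjusted p = 0.0606), with DESeq2 size factors (adjusted p = 0.0526) and with a replicate block (adjusted p = 0.0544). Nr2f6, of the COUP-TF relative EAR2, did not pass (log2 0.20 ± 0.14).

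**Figure D2:**
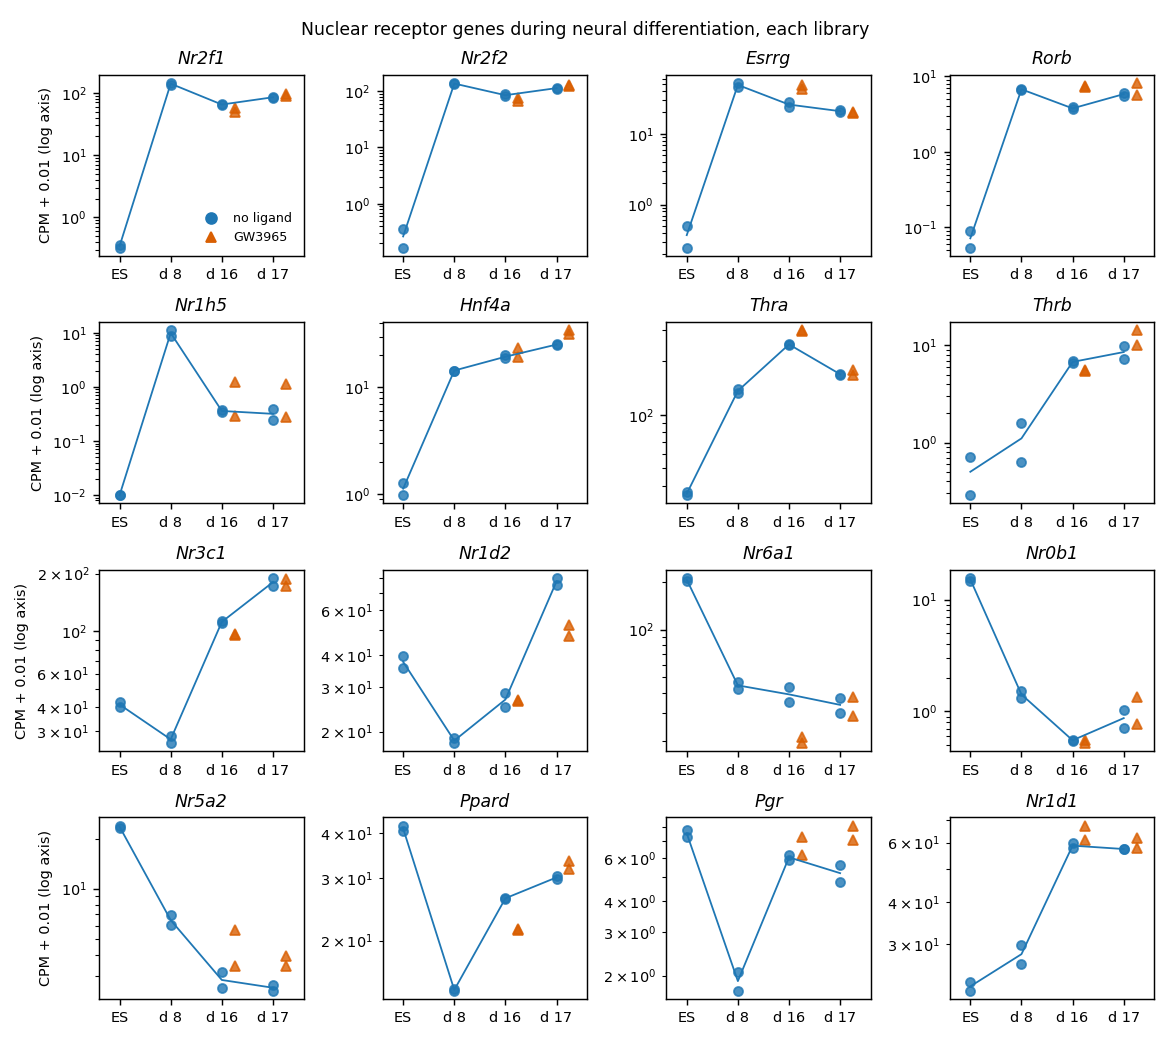
CPM plus 0.01 on log axes for 16 receptor genes in ES control and at days 8, 16 and 17 (d 8, d 16, d 17, evenly spaced), each point 1 library, lines through the means of the libraries without ligand and triangles for GW3965. Nr2f1, Nr2f2, Esrrg, Rorb and Nr1h5 lie lowest in ES control and Nr6a1, Nr0b1, Nr5a2 and Ppard highest there.

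From day 8 to day 16, 16 of the 31 genes rose and 9 fell (80.6%, beside 61.6% of all tested genes, 29.4% higher and 32.2% lower). Steroid receptor genes rose in 4 of 5 cases and RXR partners in 7 of 9, with 1 fall, while in subfamily 2 there were 2 rises and 4 falls. Nr3c1 had 26.1 and 28.3 CPM at day 8 and 111 and 113 at day 16 (log2 2.04 ± 0.075, adjusted p = 3.2e-14), so that both day 16 libraries lay above both ES and both day 8 libraries. Thrb went from 0.619 and 1.57 to 6.58 and 6.94 CPM (log2 2.59 ± 0.32, adjusted p = 6.55e-07), and Thra from 133 and 139.8 to 247 and 252 (log2 0.87 ± 0.052, adjusted p = 3.12e-11). The groups overlapped for neither thyroid hormone receptor. Rora rose from 1.74 and 1.01 to 5.18 and 5.4 CPM (log2 1.96 ± 0.28, adjusted p = 5.24e-06) and so to above both ES control libraries. Nr1d1 reached 57.7 and 59.8 CPM (log2 1.07 ± 0.14, adjusted p = 1.17e-06), and shares 263 exon bases on the opposite strand with Thra, 8.55% of its own. Other rises were those of Pgr to 6.01 CPM, Ppard to 26.3, Nr1d2 to 26.7, Hnf4a to 19.4, Nr3c2 to 2.97, Pparg to 2.91, Hnf4g to 2.76, Vdr to 2.71, Ppara to 2.54 and Esr1 to 1.72. Nr1i2, of the xenobiotic receptor PXR, had 0 counts at day 8 and 123 at day 16, at least 19.1-fold higher. Calls ended for Hnf4a without day 8 replicate 1, day 8 replicate 2 or day 16 replicate 2 (adjusted p = 0.0626 to 0.0905), and for Ppara without day 8 replicate 1 or day 16 replicate 1 (adjusted p = 0.0802 to 0.126).

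Nr1h5 fell from 11.1 and 8.75 CPM to 0.37 and 0.33 (log2 -4.81 ± 0.56, adjusted p = 1.02e-06), so among the groups without ligand its level above 1 CPM stood at day 8 alone. The COUP-TF genes fell in part from their day 8 level, Nr2f1 to 66.5 and 62.9 CPM (log2 -1.11 ± 0.078, adjusted p = 2.7e-10) and Nr2f2 to 88.7 and 80.2 (log2 -0.69 ± 0.086, adjusted p = 9.75e-07). Nr0b1 fell on to 0.535 and 0.551 CPM (log2 -1.37 ± 0.31, adjusted p = 0.00069) and Nr5a2 to 3.13 and 2.5 (log2 -1.22 ± 0.19, adjusted p = 1.84e-05). Falls were also called for Esrrg to 25.9 CPM, Rorb to 3.75, Nr2c1 to 22.2 and Nr2c2 to 115. Mrps25, whose exons overlap those of Nr2c2, also fell (log2 -0.17 ± 0.065, adjusted p = 0.0325). The call for Nr2c2 ended without day 8 replicate 1 or day 16 replicate 2 (adjusted p = 0.0881 to 0.0977), with DESeq2 size factors (adjusted p = 0.0924) and with the DESeq2 Wald test (adjusted p = 0.108). Nr6a1, Nr2f6, Nr2e1, Esr2, Esrra and Nr1i3 did not pass (log2 -0.19, 0.11, -1.07, 1.10, 0.22 and 0.04). Over this step the summed level of 5 mesenchyme markers went from 1583 and 1849 to 9071 and 10369 CPM, that of 7 neuron markers from 3151 and 3217 to 1617 and 1635, and that of 5 astrocyte markers from 57 and 59.7 to 844 and 878. Of the neuron markers Dcx (mean 946 to 331 CPM), Tubb3 (882 to 376), Map2 and Stmn2 fell. Snap25 (86.1 to 98.8 CPM), Syt1 (79.9 to 85.1) and Rbfox3 (30.3 to 31.6) did not fall. The part of these cells in the receptor levels was not tested.

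Between days 16 and 17 without ligand, 8 genes rose and 2 fell (32.3%, beside 56.2% of all tested genes, 26.8% higher and 29.5% lower). Nr1d2 (chromosome 14, 18204054 to 18239127) had 25.1 and 28.4 CPM at day 16 and 75.5 and 80.2 at day 17 (log2 1.54 ± 0.092, adjusted p = 2.78e-11), above every other group. Nr3c1 had 171 and 189.7 CPM at day 17 (log2 0.69 ± 0.069, adjusted p = 4.54e-08), above both day 16 libraries. Thra fell to 168 and 171 CPM (log2 -0.56 ± 0.052, adjusted p = 1.66e-08). Nr2f1 and Nr2f2 rose by 0.39 ± 0.079 and 0.42 ± 0.087 on the log2 scale, and Nr2c2 by 0.45 ± 0.075. Mrps25, which overlaps Nr2c2 on the opposite strand, rose by 0.37 ± 0.066 (adjusted p = 7.76e-05). Rorb went from 3.87 and 3.63 to 6.06 and 5.54 CPM, and the call ended without day 16 replicate 2 or day 17 replicate 1 (adjusted p = 0.0851 to 0.0909). The fall of Rora (log2 -0.68 ± 0.26) and the rise of Hnf4a (log2 0.38 ± 0.14) ended without any 1 of the 4 libraries compared (adjusted p = 0.0735 to 0.123) for Rora and without any 1 of the 4 libraries compared (adjusted p = 0.0554 to 0.107) for Hnf4a. Esr1 rose from 1.4 and 2.04 to 3.71 and 3.03 CPM, a call that ended without day 16 replicate 1 or day 17 replicate 1 (adjusted p = 0.163 to 0.177) and with the DESeq2 Wald test (adjusted p = 0.0829). The immediate early receptor gene Nr4a1, not among the 35, rose by 3.08 on the log2 scale over the same step. Of 14 receptor genes outside the 35, Nr4a1 among them, 5 rose, 5 fell and 4 were not called. The summed astrocyte markers reached 2635 and 2967 CPM. Most of that sum was Gfap, which went from a mean of 575 to 2354 CPM. Aqp4 and Slc1a3 also rose, while Aldh1l1 (79 to 45.9 CPM) and S100b (4.04 to 1.17) fell.

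In ES cells the 24 h ligands were compared with control and with each other. With GW3965 0 of the 31 genes changed (edgeR), beside 0.32% of all tested genes, and 3 had an unadjusted p under 0.05. LG268 also gave 0 changes, beside 0.851%, with 3 at an unadjusted p under 0.05. DESeq2 and limma-voom called 0 for either ligand. Between LG268 and GW3965 the count was 0 beside 0.6%, with 5 at an unadjusted p under 0.05, 1 call by DESeq2 and 0 by limma-voom. The 95% intervals of the log2 difference between LG268 and GW3965 were 0.12 to 0.37 for Thra, 0.08 to 0.51 for Nr6a1 and -0.08 to 0.24 for Nr3c1. Nr2f1 had 16 counts in ES control and 3 with GW3965, a ratio of 6.70 (1.92 to 35.9), and did not pass the test (adjusted p = 0.145).

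With both ligands 2 genes rose and 0 fell against control (6.45%, beside 11.3% of all tested genes, 4.83% higher and 6.47% lower). Nr3c1 (chromosome 18, 39410545 to 39519421) had 42.7 and 40.1 CPM in control, 42.8 and 43.5 with GW3965, 47.8 and 43.2 with LG268 and 56.6 and 51.6 with both (log2 0.39 ± 0.077, adjusted p = 0.00301 against control). Nr6a1 had 210.5 and 201 CPM in control, 196 and 179 with GW3965, 232 and 229 with LG268 and 274 and 246 with both (log2 0.34 ± 0.10, adjusted p = 0.0396). In each gene both libraries given the 2 ligands lay above all other ES libraries. For Nr3c1 the call ended without ES control replicate 2 (adjusted p = 0.0526) and in a fit of the compared groups alone (adjusted p = 0.0567), and for Nr6a1 without ES control replicate 1, ES control replicate 2 or both-ligand replicate 1 (adjusted p = 0.128 to 0.274).

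Against GW3965 alone the both-ligand group had 2 genes higher and 1 lower (9.68%, beside 10.7% of all tested genes, 3.68% higher and 6.98% lower). Nr3c1 and Nr6a1 were higher by 0.33 ± 0.076 and 0.47 ± 0.10 on the log2 scale. Nr2f6 was lower, at 17.8 and 14.1 CPM with GW3965 and 10.1 and 11.1 with both (log2 -0.60 ± 0.15, adjusted p = 0.0146). Exons of Ocel1 on the opposite strand cover 54.4% of those of Nr2f6, and Ocel1 had a log2 difference of -0.69 ± 0.25 in this comparison (adjusted p = 0.0807). These calls ended for Nr3c1 without ES GW3965 replicate 1 or both-ligand replicate 1 (adjusted p = 0.0986 to 0.145) and in a fit of the compared groups alone (adjusted p = 0.0904), for Nr6a1 without ES GW3965 replicate 2 or both-ligand replicate 1 (adjusted p = 0.0825 to 0.0987) and for Nr2f6 without ES GW3965 replicate 1 or both-ligand replicate 1 (adjusted p = 0.153 to 0.232) and in a fit of the compared groups alone (adjusted p = 0.0899). Against LG268 alone 0 genes were called by edgeR, beside 4.21%, with 7 at an unadjusted p under 0.05, 2 calls by DESeq2 and 0 by limma-voom. The test of whether the effects of the 2 ligands add on the log scale called 0 genes, beside 0.134%, with 4 at an unadjusted p under 0.05 and 0 calls by DESeq2 or limma-voom.

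Nr1d1, the REV-ERB alpha gene, differed between the both-ligand libraries. It had 23 and 21.8 CPM in control, 22.3 and 21.1 with GW3965, 21.7 and 20.1 with LG268 and 11.2 and 20.5 with both. The 2 both-ligand libraries stood apart from each other by more than any other ES pair, and the difference from control did not pass (log2 -0.49 ± 0.16, adjusted p = 0.0526). Nr1d1 was called lower than control without a filter (adjusted p = 0.000403), with the DESeq2 Wald test (adjusted p = 0.0219), with limma-voom (adjusted p = 0.0486) and without both-ligand replicate 2 (log2 -0.996, adjusted p = 2.81e-05).

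**Figure D3:**
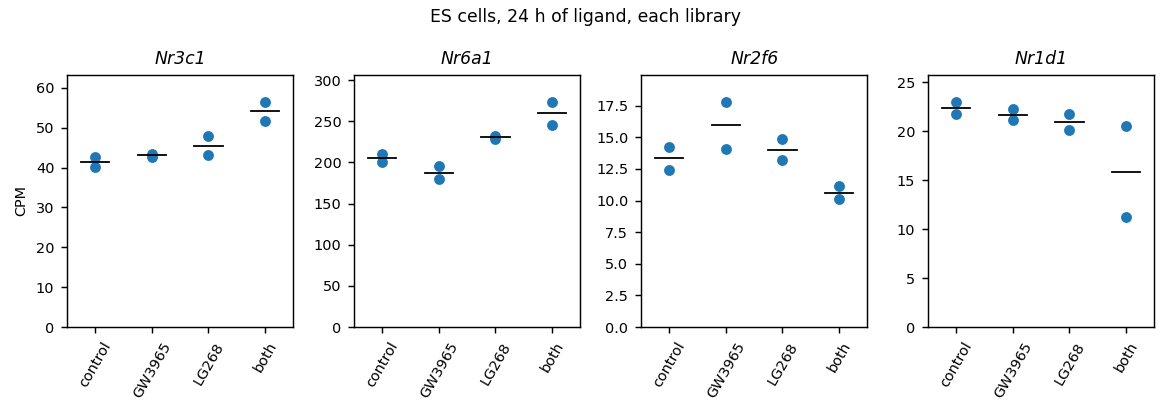
CPM in each ES library (points, 2 per group) with the group mean (bar) for Nr3c1, Nr6a1, Nr2f6 and Nr1d1, axes from 0. Both libraries with the 2 ligands lie above the other 6 for Nr3c1 and Nr6a1 and below the other 6 for Nr2f6, and for Nr1d1 they lie far apart.

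At day 16, 5 genes were higher and 7 lower with GW3965 than without (38.7%, beside 31.7% of all tested genes, 13% higher and 18.7% lower). Nr6a1 had 43.4 and 34.8 CPM without and 19.4 and 21.2 with GW3965 (log2 -0.94 ± 0.12, adjusted p = 7.22e-06). Esrrg had 28 and 23.8 and 49 and 43.6 CPM (log2 0.84 ± 0.13, adjusted p = 5.73e-05), close to its day 8 level. Rorb (chromosome 19, 18930605 to 19111196) had 3.87 and 3.63 and 7.5 and 7.1 CPM (log2 0.96 ± 0.20, adjusted p = 0.00112). In these genes the groups did not overlap. Thra was higher by a small margin with little spread, at 247 and 252 against 298 and 299 CPM (log2 0.26 ± 0.051, adjusted p = 0.000613). These 4 calls held in every alternative that was run.

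Other calls at day 16 were less stable. Nr2f6 did not pass, but was called lower without a filter (log2 -0.37, adjusted p = 0.0314) and with limma-voom (log2 -0.36, adjusted p = 0.0357). The same held with a stricter filter (adjusted p = 0.0499) and without the day 17 libraries (adjusted p = 0.0371). Rora did not pass either, but was called lower without a filter (log2 -0.64, adjusted p = 0.0262) and with limma-voom (log2 -0.70, adjusted p = 0.0212). Nr5a2 had 3.13 and 2.5 CPM without and 5.63 and 3.4 with GW3965 (log2 0.70 ± 0.20, adjusted p = 0.0104), and the call ended without day 16 replicate 2 or day 16 GW3965 replicate 1 (adjusted p = 0.152 to 0.301) and in a fit of the compared groups alone (adjusted p = 0.0911). Nr2f1 had 66.5 and 62.9 against 56.7 and 49.8 CPM (log2 -0.28 ± 0.079, adjusted p = 0.00974), and that call ended without day 16 replicate 1 or day 16 GW3965 replicate 2 (adjusted p = 0.0978 to 0.156). Nr2f2 had 88.7 and 80.2 against 75 and 67.4 CPM (log2 -0.24 ± 0.087, adjusted p = 0.0377), a call that ended without day 16 replicate 1 or day 16 GW3965 replicate 2 (adjusted p = 0.276 to 0.302), with DESeq2 size factors (adjusted p = 0.0608), in a fit of the compared groups alone (adjusted p = 0.0654) and without the day 17 libraries (adjusted p = 0.0797). For both COUP-TF genes the 2 groups did not overlap, and the differences were small beside their rise from ES cells. Nr3c1 had 111 and 113 against 97.2 and 95.3 CPM (log2 -0.22 ± 0.069, adjusted p = 0.0201), and Ppard 26.4 and 26.2 against 21.4 and 21.6 (log2 -0.29 ± 0.085, adjusted p = 0.0126). Without any 1 of the 4 libraries both calls ended (adjusted p = 0.0515 to 0.111 for Nr3c1 and 0.056 to 0.0684 for Ppard), and that for Ppard also in a fit of the compared groups alone (adjusted p = 0.0575).

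Among genes under 5 CPM, Nr3c2 was higher with GW3965 at day 16 (2.96 and 2.97 against 4.96 and 4.8 CPM), and the call ended without any 1 of the 4 libraries compared (adjusted p = 0.0674 to 0.103). Vdr, the vitamin D receptor gene, was lower (2.35 and 3.08 against 1.18 and 1.56 CPM), a call that ended without day 16 replicate 2 or day 16 GW3965 replicate 1 (adjusted p = 0.141 to 0.2) and with the DESeq2 Wald test (adjusted p = 0.0509). Esr1 was also lower (1.4 and 2.04 against 0.665 and 0.796 CPM), and its call ended without day 16 replicate 2, day 16 GW3965 replicate 1 or day 16 GW3965 replicate 2 (adjusted p = 0.0624 to 0.211) and with the DESeq2 Wald test (adjusted p = 0.0591). With GW3965 at day 16 the summed mesenchyme markers were 4161 and 5283 CPM against 9071 and 10369 without, the 7 neuron markers 2437 and 2637 against 1617 and 1635, and the 5 astrocyte markers 356 and 496 against 844 and 878. All 5 mesenchyme, 7 neuron and 5 astrocyte markers reached 1 CPM in both groups. The 7 pluripotency markers summed to 55.6 and 61.1 CPM with GW3965 against 94.6 and 107 without, with 5 and 7 of them at 1 CPM or more. Klf4 made up most of both sums (mean 41.3 against 57.3 CPM), and had 28.1 CPM in ES control. Pou5f1, Nanog, Zfp42, Dppa5a and Tdgf1 were also lower with GW3965, while Esrrb was higher (7.65 against 5.24 CPM). The 7 neural progenitor markers summed to 1467 and 1546 against 1942 and 2058 CPM, and the 7 endoderm and hepatic markers to 336 and 349 against 247 and 249. Of the endoderm and hepatic markers Afp (mean 186 against 87.1 CPM), Alb and Ttr were higher with GW3965. Sox17, Foxa2, Gata4 and Gata6 (25.5 against 41.4 CPM) were lower. The part of these cells in the receptor differences, that of Nr6a1 included, was not tested.

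At day 17, 4 genes were higher and 1 lower with GW3965 (16.1%, beside 35.2% of all tested genes, 17.2% higher and 18% lower). Nr1d2 had 75.5 and 80.2 CPM without and 52.3 and 47.6 with GW3965 (log2 -0.64 ± 0.089, adjusted p = 1.56e-05), and this call held in every alternative run. Its level with GW3965 stayed above both libraries of day 16. In the same comparison Nr4a1 was also lower (log2 -3.08), as was Dusp1, a gene of the stress and glucocorticoid response (log2 -1.79). Of 14 receptor genes outside the 35, Nr4a1 among them, 2 were higher, 4 lower and 8 not called in this comparison. Of 9 genes of glucocorticoid metabolism and targets, Dusp1 among them, 2 were higher, 2 lower and 5 not called there. Pgr had 5.59 and 4.78 CPM without and 7.1 and 8.07 with GW3965 (log2 0.54 ± 0.17, adjusted p = 0.0162), and the call ended without day 17 replicate 2 or day 17 GW3965 replicate 2 (adjusted p = 0.124 to 0.128). Hnf4a had 25 and 25.5 and 34.2 and 32 CPM (log2 0.39 ± 0.14, adjusted p = 0.0304), a call that ended without any 1 of the 4 libraries compared (adjusted p = 0.0623 to 0.149). Vdr had 2.09 and 1.57 and 4.6 and 3.66 CPM, Ppara 1.66 and 2.86 and 5.27 and 4.2, and both were called higher. Those calls ended for Vdr without day 17 replicate 2 or day 17 GW3965 replicate 1 (adjusted p = 0.0739 to 0.0839) and for Ppara without day 17 replicate 1 or day 17 GW3965 replicate 1 (adjusted p = 0.11 to 0.207). Summed astrocyte markers were 1641 and 2154 CPM with GW3965 against 2635 and 2967 without. Gfap made up most of this sum (mean 1528 against 2354 CPM). Aqp4, Aldh1l1 and Slc1a3 were also lower, while S100b was higher (6.77 against 1.17 CPM). Neural progenitor markers summed to 1646 and 1796 CPM with GW3965 against 1056 and 1146 without, and neuron markers to 1473 and 1595 against 1249 and 1297. Of the neuron markers Tubb3, Dcx, Map2 and Stmn2 were higher. Snap25 (58.5 against 72.8 CPM), Syt1 (76.7 against 84.9) and Rbfox3 (20.1 against 25.8) were lower. The part of these cells was not tested.

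**Figure D4:**
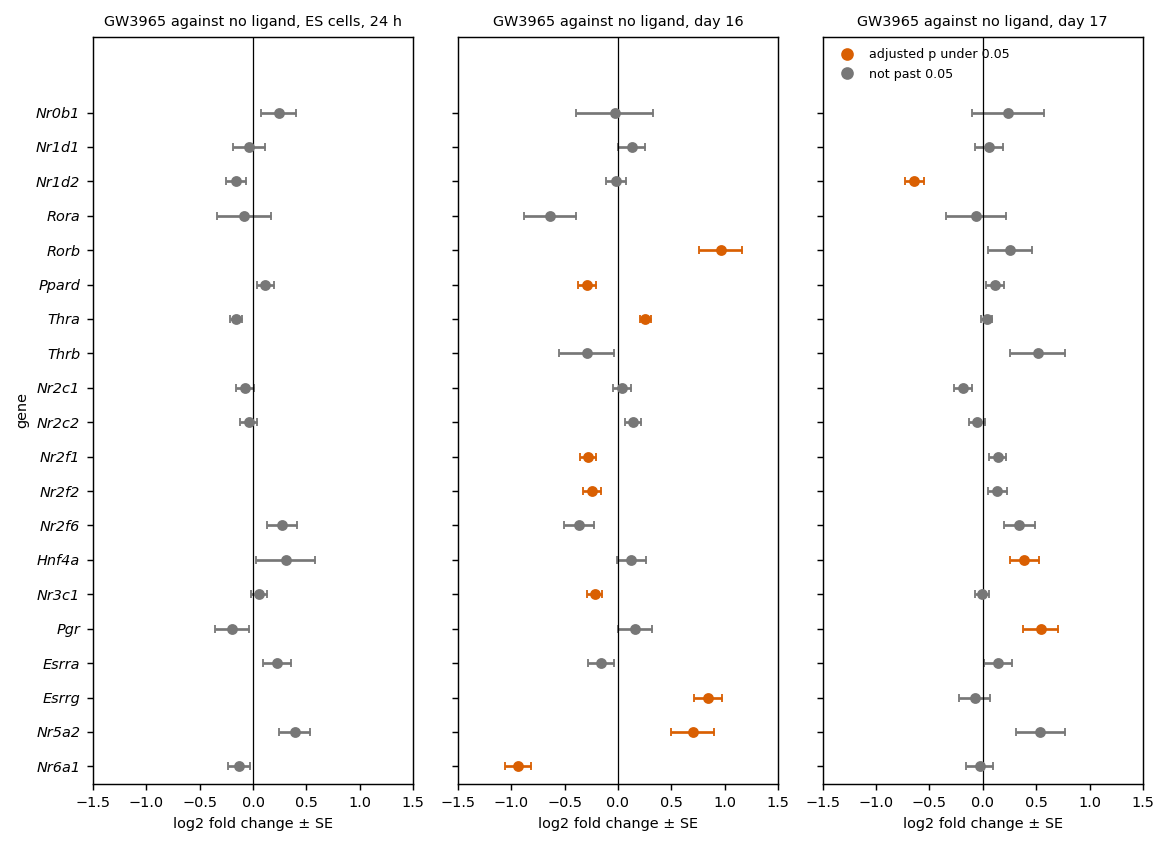
Log2 fold change ± SE of GW3965 against no ligand for 20 receptor genes in ES cells after 24 h, at day 16 and at day 17, orange where the adjusted p was under 0.05. In the ES panel alone, genes under 1 CPM in both groups are not drawn (Nr2f1, Nr2f2, Esrrg, Rorb and Thrb). Nr1h5 was left out of all panels. Nr6a1 and Esrrg lie far from 0 at day 16 and near it at day 17, and Nr1d2 the other way round. Rorb lies far from 0 at day 16 and nearer to it at day 17, but the difference between its responses did not pass.

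The difference between the responses to GW3965 was itself tested. From day 16 to day 17 it changed for 10 genes, 6 higher and 4 lower (32.3%, beside 37% of all tested genes, 20% higher and 17% lower). Nr6a1 had a response of -0.94 ± 0.12 at day 16 and -0.03 ± 0.12 at day 17, a difference of 0.91 ± 0.17 on the log2 scale (adjusted p = 0.000353). Esrrg had 0.84 ± 0.13 and -0.08 ± 0.14, a difference of -0.92 ± 0.19 (adjusted p = 0.000866). Vdr turned from -0.995 ± 0.32 to 1.15 ± 0.32, a difference of 2.15 ± 0.46 (adjusted p = 0.000953), at levels under 5 CPM. Nr1d2 went from -0.02 ± 0.094 to -0.64 ± 0.089, a difference of -0.62 ± 0.13 (adjusted p = 0.000806). In these 4 genes the day 16 and day 17 responses therefore differed by more than the spread between libraries. Rorb, with responses of 0.96 ± 0.20 and 0.25 ± 0.21, did not pass this test (difference -0.71 ± 0.29, adjusted p = 0.061).

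Against the response of ES cells, 3 genes were higher and 3 lower at day 16 (19.4%, beside 14.8% of all tested genes, 4.86% higher and 9.89% lower), and 3 were higher and 1 lower at day 17 (12.9%, beside 18.2% of all tested genes, 8.59% higher and 9.65% lower). Thra had a response of -0.16 ± 0.06 in ES cells and 0.26 ± 0.051 at day 16, a difference of 0.42 ± 0.079 (adjusted p = 0.00133). Nr6a1 had -0.13 ± 0.10 in ES cells, so its day 16 response lay -0.81 ± 0.16 from that of ES cells (adjusted p = 0.00178). Both differences held in every alternative run.

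**Figure D5:**
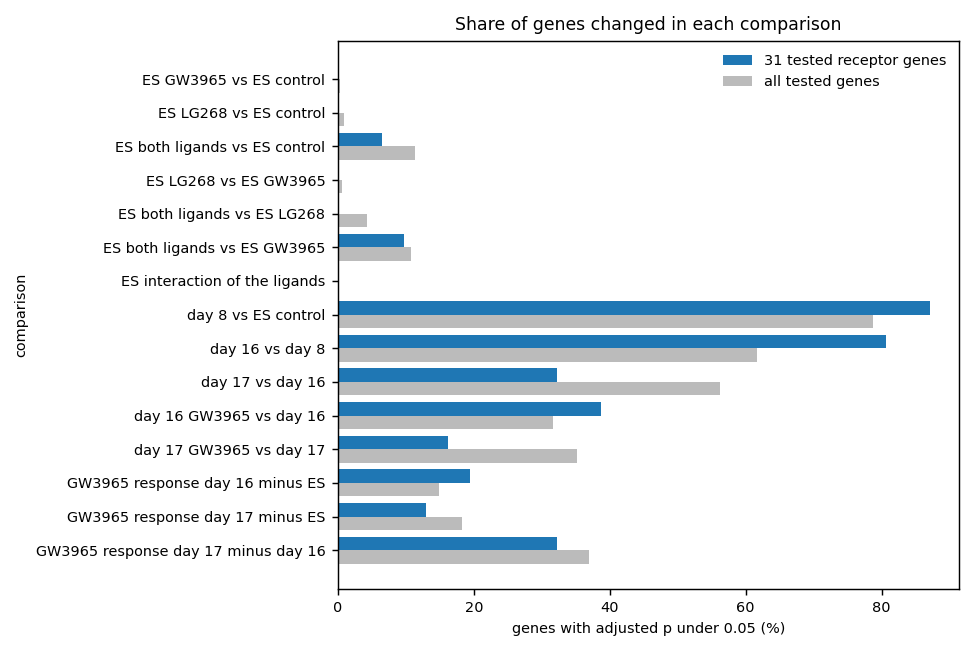
Share of the 31 tested receptor genes (blue) and of all 17166 tested genes (grey) with an adjusted p under 0.05 in each of the 15 comparisons, in percent, axis from 0. The receptor share is above that of all genes in the steps to days 8 and 16, with GW3965 at day 16 and for the day 16 response against ES cells. In all other comparisons, the step to day 17 and GW3965 at day 17 included, it is below.

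Genes that work with these receptors were read from lists of coregulators, hormone metabolism and targets. Of 24 coregulator genes 12 rose and 9 fell from ES control to day 8, 4 and 12 to day 16, and 10 and 5 to day 17, with medians of 0.14, -0.15 and 0.21 on the log2 scale beside 0, -0.04 and -0.02 for all genes. Of all tested genes 78.7% were called to day 8, 61.6% to day 16 and 56.2% to day 17. Ppargc1a, a coactivator of the estrogen-related and fatty acid receptors, rose by 5.66 to day 8 and 1.72 to day 16. Hr, a corepressor and target of the thyroid hormone receptors, fell to day 8 (log2 -3.67) and rose by 3.65 to day 16. Nrip1, a corepressor that retinoids induce, rose by 0.54 with LG268 in ES cells and by 0.74 with both ligands. Those were 1 rise with LG268 and, with both, 3 rises and 3 falls of 24, where 0.851 and 11.3% of all tested genes were called.

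The 14 clock genes tested had 6 rises and 6 falls to day 8, 9 and 2 to day 16, and 7 and 0 to day 17, beside 78.7, 61.6 and 56.2% of all tested genes called in either direction. Nfil3, whose gene REV-ERB receptors repress, rose by 1.24 from day 16 to day 17 and was lower with GW3965 at day 17 (log2 -1.03), where 3 clock genes were higher and 4 lower (beside 17.2 and 18% of all tested genes). Of 11 chaperones of steroid receptors 1 rose and 10 fell to day 8, with Hsp90ab1 at log2 -1.68, and 0 rose and 7 fell to day 16 and with GW3965 at day 16. Of all tested genes 39.1% fell to day 8, 32.2% to day 16 and 18.7% were lower with GW3965 at day 16. Hspa8, at log2 -3.17 to day 17, stands in the step where the files were made differently.

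Thyroid hormone genes, 8 of 10 tested, had 2 rises and 6 falls to day 8, 5 and 2 to day 16, and 5 and 0 to day 17, beside 78.7, 61.6 and 56.2% of all tested genes called in either direction. Klf9, a target of thyroid hormone and glucocorticoid receptors, fell to day 8 (log2 -3.70). Thrsp, another thyroid hormone target, rose by 4.59 to day 16. Dio2, of the enzyme that activates thyroid hormone, rose by 2.67 to day 17 and was lower with GW3965 there (log2 -1.61), as was Dio3 of the inactivating enzyme (log2 -1.34). With GW3965, 0 of these 8 were higher at either day, and 2 were lower at day 16 and 3 at day 17, beside 18.7 and 18% of all tested genes.

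Of 9 glucocorticoid genes 3 rose and 5 fell to day 8, 2 and 5 to day 16, and 4 and 2 to day 17, beside the same shares of all tested genes (78.7, 61.6 and 56.2%). Hsd11b1, of the enzyme that makes active glucocorticoid, rose by 3.54 to day 16 while Hsd11b2, of the inactivating enzyme, fell (log2 -2.24). Of 5 tested steroidogenesis genes, targets of SF-1, 2 rose and 3 fell to day 8, and 4 were lower and 0 higher with GW3965 at day 17, where 18% of all tested genes were lower and 17.2% higher. Nr5a1, the gene of SF-1, stayed under 0.5 CPM throughout. Among retinoic acid receptor genes, Rarb rose to day 8 and then fell (log2 6.60, then -2.23), and Rarg fell and then rose (log2 -2.08, then 1.56). In ES cells Rarb rose with LG268 (log2 1.71) and with both ligands (log2 1.44). Of the same 14 genes, 1 rose and 0 fell with LG268, and 1 rose and 1 fell with both. Of all tested genes 0.851 and 11.3% were called.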

How the data were processed

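Total RNA of 18 libraries was measured as counts of reads per gene symbol, with 5 summary lines per file kept apart. The authors deposited raw counts, for which the submitters' processing notes name the build mm10 and the tools HTSeq 0.6.0, TopHat2 2.0.7, Cuffdiff 2.0.2 and Cufflinks 2.0.2 without their order. The strand setting and annotation are not given in the sources used here. Reads without a gene made up 42.1 to 43.4% of the day 17 files and 62.8 to 65.9% of the others. From the counts, 1 quasi-likelihood fit of edgeR 4.0.16 (R 4.3.3, filterByExpr, TMM, 9 groups, 9 residual degrees of freedom) gave 15 comparisons, two-sided, with Benjamini-Hochberg adjustment over 17166 genes and a threshold of 0.05. limma 3.58.1 and DESeq2 1.42.0 were alternatives, with no filter, a filter of 1 CPM in 4 libraries, DESeq2 size factors, the compared groups alone, no day 17 libraries, a replicate block, and each library left out. The code was tested on simulated data. Intervals and floors (3 counts per library, 95%) cover counting error only. Exon overlaps came from GENCODE M21 (GRCm38), promoters from RefSeq.

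The 35 genes, the gene lists and the marker lists were chosen with earlier results of these data known. Values in every library are given for genes at 5 CPM or more in some group that were called in a ligand comparison, or that had the 3 largest rises or falls of a time step, and others by level and test. Same-numbered libraries of different groups did not deviate together (36 pairs, correlation -0.096 to 0.069), so they were not paired. No sample was left out, and reads without a gene were not used.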

Additional observations from a re-analysis of the deposited data

Results flagged for a closer look

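In 3 tests of whether the response to GW3965 differed between 2 stages, 6, 4 and 10 receptor genes passed an adjusted p of 0.05 in the edgeR fit. The length of treatment given in the names of the count tables differs between day 16 and the other stages, so it cannot be told apart from age there. Values are differences of log2 fold changes ± SE. At day 16 against ES cells they were those of Ppard (-0.41 ± 0.12), Thra (0.42 ± 0.079), Nr2f1 (2.35 ± 0.67), Nr2f6 (-0.64 ± 0.20), Nr3c2 (1.39 ± 0.39) and Nr6a1 (-0.81 ± 0.16). At day 17 against ES cells they were those of Nr1d2 (-0.48 ± 0.13), Vdr (1.63 ± 0.54), Nr2f1 (2.77 ± 0.66) and Pgr (0.74 ± 0.23). At day 17 against day 16 they were those of Nr1d2 (-0.62 ± 0.13), Vdr (2.15 ± 0.46), Ppard (0.41 ± 0.12), Thra (-0.22 ± 0.073), Nr2f1 (0.42 ± 0.11), Nr2f2 (0.38 ± 0.12), Nr2f6 (0.71 ± 0.20), Nr3c2 (-0.94 ± 0.33), Esrrg (-0.92 ± 0.19) and Nr6a1 (0.91 ± 0.17).

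Nr2f1 is in all of these lists, but in ES cells its response rests on 16 counts in control and 3 with GW3965, and the difference from ES cells was no longer called without ES control replicate 1, ES control replicate 2 or ES GW3965 replicate 1 (adjusted p = 0.0648 to 0.385) and with limma-voom (adjusted p = 0.0775) for day 16 and without ES GW3965 replicate 1 (adjusted p = 0.186) for day 17. For Nr2f6, whose exons lie in part inside those of Ocel1, the difference at day 16 against ES cells ended without ES control replicate 1, ES GW3965 replicate 1, day 16 replicate 1, day 16 replicate 2, day 16 GW3965 replicate 1 or day 16 GW3965 replicate 2 (adjusted p = 0.0642 to 0.244). The calls for Ppard against ES cells ended without ES control replicate 1, ES control replicate 2, ES GW3965 replicate 1, day 16 replicate 1, day 16 replicate 2, day 16 GW3965 replicate 1 or day 16 GW3965 replicate 2 (adjusted p = 0.0525 to 0.149). Those of Nr3c2 ended without ES control replicate 2, ES GW3965 replicate 1, day 16 replicate 1 or day 16 replicate 2 (adjusted p = 0.0517 to 0.112) at day 16 against ES cells, and without day 16 replicate 1, day 16 replicate 2, day 16 GW3965 replicate 1, day 16 GW3965 replicate 2, day 17 replicate 1, day 17 replicate 2 or day 17 GW3965 replicate 1 (adjusted p = 0.0586 to 0.106), without a filter (adjusted p = 0.0547) and with the DESeq2 Wald test (adjusted p = 0.0608) at day 17 against day 16. At day 17 against ES cells the calls ended for Nr1d2 without ES control replicate 2, ES GW3965 replicate 1, day 17 replicate 2 or day 17 GW3965 replicate 2 (adjusted p = 0.0512 to 0.0965), for Vdr without ES control replicate 1, ES control replicate 2, ES GW3965 replicate 1, day 17 replicate 1, day 17 replicate 2 or day 17 GW3965 replicate 1 (adjusted p = 0.0522 to 0.245) and with the DESeq2 Wald test (adjusted p = 0.0527) and for Pgr without ES control replicate 1, ES control replicate 2, ES GW3965 replicate 1, ES GW3965 replicate 2, day 17 replicate 2 or day 17 GW3965 replicate 2 (adjusted p = 0.0544 to 0.118) and without a filter (adjusted p = 0.0627). At day 17 against day 16 they ended for Thra without day 16 replicate 1, day 17 replicate 2 or day 17 GW3965 replicate 2 (adjusted p = 0.0585 to 0.0913) and without a filter (adjusted p = 0.0641), for Nr2f2 without day 16 replicate 1, day 16 GW3965 replicate 2, day 17 replicate 2 or day 17 GW3965 replicate 1 (adjusted p = 0.0593 to 0.108) and for Nr2f6 without day 17 GW3965 replicate 1 (adjusted p = 0.0672). The calls of Nr6a1 and Thra at day 16 against ES cells, and of Nr6a1, Esrrg, Vdr, Nr1d2, Nr2f1 and Ppard at day 17 against day 16, held in every alternative run.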

How the results depend on the processing

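Of 104 pairs of receptor gene and comparison that were called, 63 were called in every alternative run, 41 were lost in at least 1 and 0 reversed direction. Among the 62 pairs of the time course 50 were kept throughout. Without a filter the receptor genes called numbered 1 for GW3965 in ES cells, 1 between LG268 and GW3965, 3 for both ligands against LG268, 5 for both against GW3965 and 3 for the interaction. With the DESeq2 Wald test they numbered 1 between LG268 and GW3965 and 2 for both ligands against LG268. In a fit of the compared groups alone they numbered 1 for GW3965, 2 for LG268, 1 for both ligands, 3 between LG268 and GW3965 and 1 for both against GW3965. The replicate block gave 26, 25 and 10 calls in the steps to days 8, 16 and 17, 12 and 5 with GW3965 at days 16 and 17, 2 for both ligands, 3 for both against GW3965 and 6, 4 and 10 for the response differences, and Nr1d1 at day 8 was the pair it ended. Leaving out 1 library, with the lone one left assumed to vary like the other groups, gave 0 to 3 calls for both ligands, 0 to 5 against LG268, 0 to 7 against GW3965 and 0 to 4 for the interaction, where both-ligand replicate 2 gave the high end. It gave 23 to 26 to day 8, 22 to 25 to day 16, 7 to 9 to day 17, 6 to 7 and 2 to 4 with GW3965 at days 16 and 17, 2 to 6 and 0 to 3 for the responses against ES cells, and 7 to 12 between the day 17 and day 16 responses. Over all genes the calls ran from 28 to 369 around 55 for GW3965 in ES cells, 42 to 843 around 146 for LG268, 427 to 2844 around 1939 for both ligands, 29 to 892 around 103 between the ligands, 56 to 2379 around 722 and 111 to 3077 around 1831 for both against LG268 and GW3965, 2 to 1461 around 23 for the interaction, 3589 to 6099 around 5446 for GW3965 at day 16 and 1566 to 2939 around 2532 for the day 16 response against ES cells. DESeq2 size factors moved the median log2 change of all genes by at most 0.04, and the SE of genes under 1 CPM limits what can be seen of them.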
